A study of Mus musculus with 8 samples.

Results

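The mitochondrial respiratory chain and ATP synthase are built in part from nuclear-encoded subunits, and 85 of their genes are described here, of 21887 protein-coding mouse genes examined. They were chosen by symbol alone: the Ndufa, Ndufb, Ndufc, Ndufs and Ndufv genes of complex I (40 genes), the Uqcr genes and Cyc1 of complex III (9 genes), Cycs for cytochrome c (1 gene), the Cox4 to Cox8 genes of complex IV (18 genes) and the Atp5 genes of ATP synthase, or complex V (17 genes). Complex II and a few other subunit genes, such as Ndufab1, fall outside these symbols. The complex was also set by symbol and not by where the protein sits, so Ndufa4 and Ndufa4l2 are counted with complex I. The rule uses no measured value, although the group was picked with earlier results of these data known. Occupancy of these genes was read from chromatin immunoprecipitation with sequencing (ChIP-seq), in which an antibody enriches the DNA bound by a protein and the DNA is sequenced. The differentiated cells were oligodendrocytes derived from neural stem cells (hybrid background FvB/C57BL6), at passage 7, with ectopic PPARb carrying an HA tag. Their medium was Neurobasal with B-27, GlutaMAX-I, IGF-1 and the thyroid hormone T3. Those libraries used antibodies to Qki-5 (home-made), PPARb (Thermo Fisher PA1-823A), HA (Cell Signaling #3724S) and the RNA polymerase II C-terminal domain, here Pol II (Abcam ab817). All of these cells, the input included, carried the introduced PPARb, so no group shows the native receptor alone on this background. The isolated cells were C57BL6 brain oligodendrocytes taken with O4 magnetic beads at passage 0, and gave a Qki-5 and a PPARb library and an input. Each of the 8 groups had 1 library, so no value has a replicate error, no difference could be tested against a spread between replicates, and intervals cover counting error only.

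Complex I takes electrons from NADH, complex III passes them to the small carrier cytochrome c, complex IV hands them to oxygen, and complex V uses the proton gradient that results to make ATP. Most subunits are needed in every respiring cell, while some complex IV subunits exist as paralogues that are used in heart, skeletal muscle, testis or lung. Qki-5 is the nuclear isoform of Quaking, an RNA-binding protein that oligodendrocytes need for myelination, and PPARb is a nuclear receptor that binds fatty acids and switches on lipid oxidation genes. Nuclear genes of the respiratory chain are known targets of NRF-1, of the ETS factor GABP and of YY1.

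The stretches below are the 250 bases before the listed start of 6 subunit genes, from RefSeq on GRCm38 (mm10), each read 5′ to 3′ on the strand of the gene. Ndufb7, Atp5g2 and Cycs are shown because their peaks were among the tallest of the group. Cox8a and Cox8b are a widely used and a muscle-type paralogue of 1 subunit, with and without peaks. Cox5a is shown because its peaks lie inside the gene as RefSeq draws it. Capitals mark matches, on either strand, to CCGGAAG (ETS), GCATGCGC (NRF-1), GGGCGG (GC box) or CCAAT. Ndufb7 is at chr8:83566508-83566757 on the plus strand, Atp5g2 at chr15:102671048-102671297 (minus), Cycs at chr6:50566570-50566819 (minus), Cox8a at chr19:7217617-7217866 (minus), Cox8b at chr7:140900447-140900696 (minus) and Cox5a at chr9:57520982-57521231 (plus).
Ndufb7: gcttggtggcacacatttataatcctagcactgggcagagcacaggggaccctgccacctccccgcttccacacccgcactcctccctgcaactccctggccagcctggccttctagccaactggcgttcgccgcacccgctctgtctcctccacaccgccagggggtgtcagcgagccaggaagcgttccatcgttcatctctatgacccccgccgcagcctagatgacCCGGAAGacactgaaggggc
Atp5g2: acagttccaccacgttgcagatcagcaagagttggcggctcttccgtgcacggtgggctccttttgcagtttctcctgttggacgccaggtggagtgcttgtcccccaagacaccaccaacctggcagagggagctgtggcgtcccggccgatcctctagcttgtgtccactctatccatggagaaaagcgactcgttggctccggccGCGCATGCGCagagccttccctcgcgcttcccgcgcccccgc
Cycs: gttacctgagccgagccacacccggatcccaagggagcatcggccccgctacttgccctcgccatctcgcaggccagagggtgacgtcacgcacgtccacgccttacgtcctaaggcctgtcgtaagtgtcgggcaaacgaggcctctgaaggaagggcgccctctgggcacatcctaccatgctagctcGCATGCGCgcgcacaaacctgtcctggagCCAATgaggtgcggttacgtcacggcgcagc
Cox8a: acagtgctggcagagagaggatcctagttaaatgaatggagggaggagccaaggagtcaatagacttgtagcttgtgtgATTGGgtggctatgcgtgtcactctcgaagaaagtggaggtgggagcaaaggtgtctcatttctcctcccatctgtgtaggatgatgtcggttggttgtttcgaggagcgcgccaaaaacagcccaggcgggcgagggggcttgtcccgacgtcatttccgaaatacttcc
Cox8b: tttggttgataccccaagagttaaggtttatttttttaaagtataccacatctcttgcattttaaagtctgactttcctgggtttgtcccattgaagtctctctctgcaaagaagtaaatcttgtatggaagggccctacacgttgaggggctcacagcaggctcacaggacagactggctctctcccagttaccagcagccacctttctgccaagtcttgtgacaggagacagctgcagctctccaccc
Cox5a: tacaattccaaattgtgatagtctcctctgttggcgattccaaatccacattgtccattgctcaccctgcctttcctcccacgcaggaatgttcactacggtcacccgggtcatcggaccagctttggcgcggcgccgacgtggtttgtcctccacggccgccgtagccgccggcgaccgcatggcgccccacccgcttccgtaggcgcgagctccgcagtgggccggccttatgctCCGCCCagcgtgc

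The Ndufb7 stretch holds 1 ETS match close to the start. In Atp5g2 the NRF-1 letters are found on both strands at the same place, in an overlap of 2 matches. Cycs holds 1 NRF-1 match and 1 CCAAT box, Cox8a holds 1 CCAAT box, and Cox5a holds 1 GC box. Cox8b holds none of these letters and 1 CpG, where Cox8a holds 11 and Cycs 23. The windows of 300 bases used below add 50 bases after the start. In them Cox8a also held the ETS letters, and Cycs and Atp5g2 a GC box. A match is a description of letters and not a bound site.

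Qki-5 and PPARb peaks stood at the ends of most subunit genes in the differentiated cells. A boundary peak is a peak whose centre lies within 1000 bp of either end of a gene. In the Qki-5 list 72 of the 85 genes had one (84.7%), against 46.2% of the other 21802 genes and 46.3% of all genes. The PPARb list held one at 71 genes (83.5%, other genes 41.9%, all genes 42.1%). For HA, which reads the tag of the introduced PPARb, the number was 70 (82.4%, other genes 46.3%, all genes 46.5%). Pol II, the enzyme that transcribes these genes, had a boundary peak at 62 (72.9%, other genes 36.2%, all genes 36.4%). The isolated cells had lower numbers. There, Qki-5 stood at 51 subunit genes (60.0%, other genes 26.3%, all genes 26.4%) and PPARb at 12 (14.1%, other genes 4.98%, all genes 5.01%). For Qki-5 in differentiated cells the centres nearest to the limit were 745 bp (Ndufa13) and 849 bp (Atp5j) from a gene end inside it and 1110 bp (Atp5g3) and 1564 bp (Cox4i2) outside it. In each of the 6 lists the subunit genes were thus bound in a larger share than the other genes, with no replicate to test it.

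**Figure D1:**
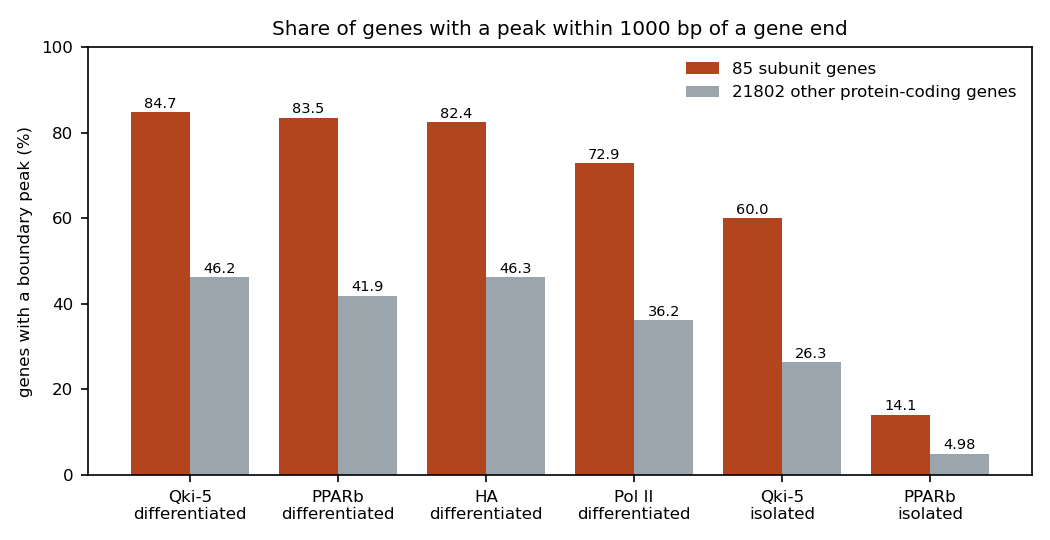
Bars give the share of genes (percent, y axis) with a boundary peak in each of the 6 antibody libraries (x axis), for the 85 subunit genes and for the 21802 other protein-coding genes. The subunit bar is the higher one in every library, from 84.7% against 46.2% for Qki-5 in differentiated cells to 14.1% against 4.98% for PPARb in isolated cells.

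The lists tended to coincide on the same subunit genes. In differentiated cells 70 of the 85 genes carried a boundary peak of each factor (82.4%, other genes 39.9%, all genes 40.0%). All 4 antibodies of the differentiated cells had one at 58 genes (68.2%, other genes 31.7%, all genes 31.8%). A further 13 genes were in 3 of those lists, Cox7b and Atp5md were in 2, no gene was in 1, and 12 were in none (14.1%, other genes 49.3%, all genes 49.1%). Atp5d lacked a Qki-5 boundary peak, and Atp5j and Atp5md lacked a PPARb one. The listed start of Atp5d lies inside the gene as RefSeq draws it, so the window around the gene ends did not reach it. The gene held 2 Qki-5 peaks, and no Qki-5 centre was nearer than 2767 bp to a gene end. Its PPARb, HA and Pol II boundary peaks lay upstream of the listed start, 488 to 647 bp from a gene end. Why Qki-5 had no peak there was not tested. Those 3 lists also held a peak 39 to 67 bp from that start. In isolated cells both factors were at 11 genes (12.9%, other genes 4.58%, all genes 4.61%). The differentiated-cell lists were called against 1 shared input and the isolated-cell lists against another, so the lists within a cell kind are not independent.

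Among genes with Pol II at an end, the shares of subunit genes and of all genes lay within a few percentage points in the differentiated-cell lists. Of the 62 subunit genes with Pol II, 61 had a Qki-5 boundary peak (98.4%), and 95.6% of all genes with Pol II had one. The PPARb numbers were 60 of 62 (96.8%) and 91.0%, and the HA numbers 60 of 62 (96.8%) and 96.3%. In isolated cells the gap was wider for Qki-5, which was at 46 of these 62 genes (74.2%) against 59.4%. Isolated-cell PPARb was at 11 (17.7%) against 12.0%. Among the 73 subunit genes with any differentiated-cell boundary peak, 11 had none of Pol II. They included Uqcrc2, a core protein of complex III, and Atp5g2, which encodes a copy of the membrane ring subunit of ATP synthase. Of all 21887 genes, 10751 had no differentiated-cell boundary peak and 7956 had a Pol II one. The share of all bound genes without Pol II was not listed, so the 11 are not read as a trait of subunit genes.

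Complex I, the entry point for electrons from NADH, has the most genes of the group, and had the most bound ones. Of its 40 genes, 38 had a boundary peak of Qki-5, 38 of PPARb, 37 of HA and 31 of Pol II in differentiated cells. In isolated cells 26 had one of Qki-5 and 6 had one of PPARb. Over all genes the shares were 46.3% (Qki-5), 42.1% (PPARb), 46.5% (HA) and 36.4% (Pol II), and 26.4% and 5.01% in isolated cells. They are the background for each complex below. Qki-5 heights in differentiated cells ran from 7.19 to 31.0 with a median of 16.9. A height is the authors' tag number scaled to 10000000 tags per library, taken from the tallest boundary peak of the gene and read only within its own list.

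Ndufb7, an accessory subunit of complex I, had the tallest Qki-5 peak of the 85 genes at 31.0 (95% Poisson interval 23.4 to 40.2), centred 2 bp from its listed start at chr8:83566660-83566860. Its PPARb, HA and Pol II peaks were at 16.5, 19 and 8.84, and the isolated-cell Qki-5 peak at 15.1, with no isolated-cell PPARb peak. Its Qki-5 peak was thus at or above 99.2% of the genes bound in that list. Its Pol II peak was at or above only 35.2%. Such shares count ties and the gene itself. Ndufa10 had heights of 24.3 for Qki-5, 14.7 for PPARb, 18.2 for HA, 8.84 for Pol II, 16.5 for isolated-cell Qki-5 and 9.24 for isolated-cell PPARb. This accessory subunit was bound in all 6 lists, with peaks between 77 bp before and 35 bp after its start.

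Ndufs1, the largest iron-sulfur subunit of complex I, had the tallest PPARb peak of the group at 23.6 (interval 17.7 to 30.9). Qki-5, HA and Pol II reached 20.5, 27.7 and 13.3 there, and the isolated-cell Qki-5 and PPARb peaks were 15.1 and 9.24. The end of Eef1b2, a translation elongation factor gene, is also within 1000 bp of these peaks, so they cannot be given to 1 of the 2 genes. Ndufb3 had a PPARb peak of 20.5 beside 22.7 for Qki-5, 21.4 for HA and 5.22 for Pol II. It was the 1 subunit gene with a PPARb peak in isolated cells (8.70) and no Qki-5 peak there, and Fam126b ends nearby.

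Ndufb6, an accessory subunit, had tall peaks of PPARb (20.9), HA (34.9) and Pol II (24.5), with Qki-5 at 19.4 and isolated-cell Qki-5 and PPARb at 15.1 and 9.24. All of these peaks lie 9663 to 9818 bp downstream of its listed start, near the ends of Topors and Smim27. A second, lower peak of each of the 4 differentiated-cell antibodies lay 10 to 54 bp from the Ndufb6 start, and the isolated-cell lists held none there. Ndufa13 had the tallest isolated-cell PPARb peak of the group at 10.9 (interval 6.64 to 16.8). Its other heights were 19.9 for Qki-5, 15.1 for PPARb, 23.0 for HA, 9.24 for Pol II and 13.7 for isolated-cell Qki-5. These peaks were upstream of the listed start (-1304 to -1123 bp) and near Tssk6, a testis kinase gene. Each list except isolated-cell PPARb also held a peak closer to the start, at 307 to 465 bp.

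Ndufc2, a membrane-arm subunit, had the tallest HA peak at 38.8 (interval 28.7 to 51.3), at or above 99.1% of genes bound there. Its Qki-5 and PPARb peaks were lower in their lists, at 10.5 and 11.6, with Pol II at 12.1 and isolated-cell Qki-5 at 6.87. In isolated cells the tallest Qki-5 peak belonged to Ndufb5 at 29.8 (interval 23.0 to 37.9), at or above 99.9% of bound genes. Ndufb5 stood at 24.3 for Qki-5, 16.9 for PPARb, 26.9 for HA, 12.5 for Pol II and 7.07 for isolated-cell PPARb. It shares these peaks with Mrpl47, a mitochondrial ribosome gene. Ndufv1, the subunit that binds NADH, and Ndufs7, an iron-sulfur subunit, followed in isolated cells at 18.3 and 17.4. Ndufv1 had 22.7 (Qki-5), 19.1 (PPARb), 25.3 (HA) and 9.24 (Pol II), and Ndufs7 had 21.0, 15.1, 19 and 12.5 in the same order.

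**Figure D2:**
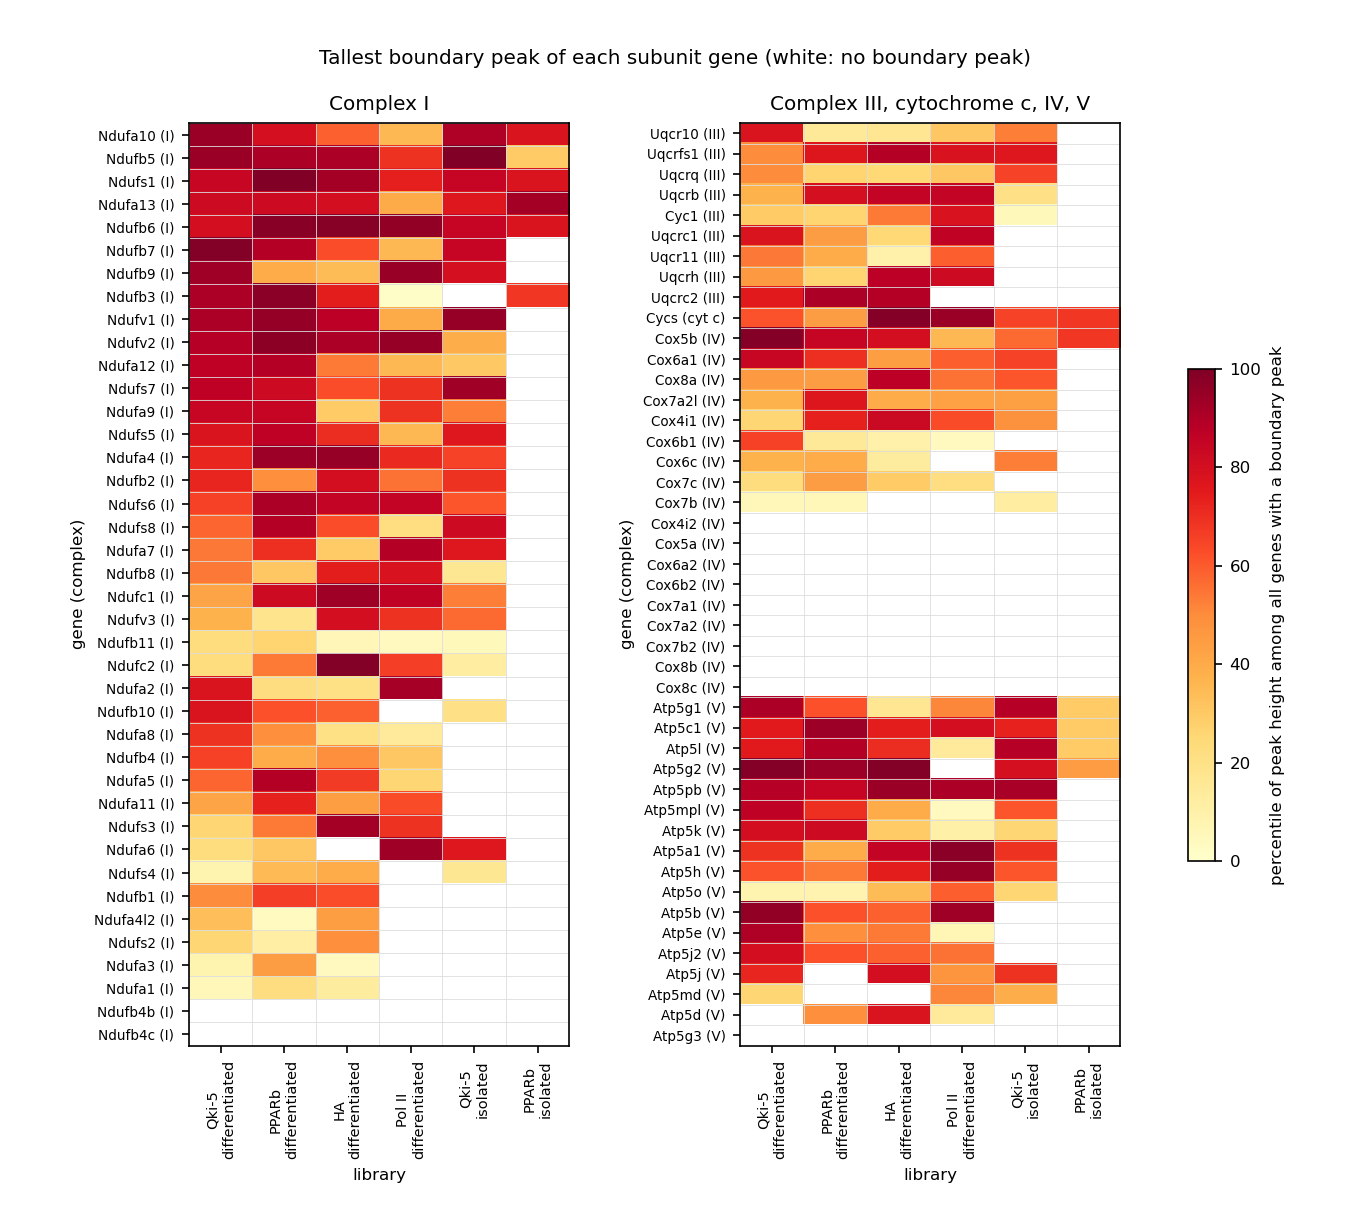
Each row is 1 subunit gene with its complex, each column 1 library, and the colour gives the percentile of its tallest boundary peak among all genes with a boundary peak in that list (white where there is none). White rows gather in complex IV, where 9 of 18 genes had no boundary peak, and the isolated-cell PPARb column is filled for 12 of 85 genes.

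All 9 genes of complex III, which passes electrons from ubiquinol to cytochrome c, had boundary peaks of Qki-5, PPARb and HA. Pol II was at 8 of them, isolated-cell Qki-5 at 5 and isolated-cell PPARb at none. Uqcr10 and Uqcrc1 had the tallest Qki-5 peaks of the complex, both 18.8 (interval 13.0 to 26.3). Uqcr10, a small subunit, had 7.57 for PPARb, 11.1 for HA, 8.44 for Pol II and 11.0 for isolated-cell Qki-5. Uqcrc1, a core protein, had 10.7, 12.7 and 16.1 for PPARb, HA and Pol II, and no isolated-cell peak. Cyc1, the cytochrome c1 subunit, had 11.6 for Qki-5, 8.90 for PPARb, 17.4 for HA, 14.1 for Pol II and 5.95 for isolated-cell Qki-5. It was low among bound genes for Qki-5 (at or above 29.6% of them) and PPARb (26.2%) but not for Pol II (78.4%). Median heights in complex III were 14.4 (Qki-5), 10.2 (PPARb), 17.4 (HA) and 14.1 (Pol II).

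Cycs, the gene of the soluble carrier cytochrome c, was bound in all 6 lists. Heights were 16.0 for Qki-5, 10.7 for PPARb, 37.2 for HA (interval 27.4 to 49.5), 21.7 for Pol II, 12.4 for isolated-cell Qki-5 and 8.70 for isolated-cell PPARb. The HA peak was at or above 98.8% of bound genes and the tallest PPARb peak at or above 44.3%. Both antibodies can bind the introduced protein, but these peaks were centred at different places. HA lay 258 bp before the listed start and the tallest PPARb peak 104 bp after it. PPARb had 2 boundary peaks at this gene, and only the tallest was set beside HA.

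Complex IV, the oxidase, had Qki-5 and PPARb boundary peaks at 9 of 18 genes, HA at 8 and Pol II at 7. These counts lay near the shares over all genes (46.3%, 42.1%, 46.5% and 36.4%). Isolated-cell Qki-5 was at 7 of the 18 (all genes 26.4%) and isolated-cell PPARb at 1 (all genes 5.01%). The unbound genes were mostly the tissue-restricted ones. None of the 7 heart, muscle, testis or lung forms among the complex IV genes had a Qki-5 boundary peak, while 9 of the other 11 had. Cox5b, a nuclear-encoded structural subunit, had one of the 3 tallest Qki-5 peaks of the 85 genes at 28.8 (interval 21.5 to 37.7) at chr1:36691351-36691551. PPARb, HA and Pol II were at 15.6, 23.0 and 8.84 there, and isolated-cell Qki-5 and PPARb at 11.5 and 8.70. Cox6a1, the liver-type form of its subunit, had 20.5 for Qki-5, 13.4 for PPARb, 15.8 for HA, 11.3 for Pol II and 12.4 for isolated-cell Qki-5.

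Paralogue pairs split by their known tissue use. Cox4i1, the general form of the largest nuclear-encoded subunit, had 11.1 for Qki-5, 13.8 for PPARb, 23.8 for HA, 11.7 for Pol II and 10.5 for isolated-cell Qki-5, and its lung form Cox4i2 had no boundary peak. Cox6b1 had 16.6, 7.57, 9.51 and 5.63 in the 4 differentiated-cell lists and none in the isolated-cell lists, and its testis form Cox6b2 had none at all. Cox8a had 13.8, 10.7, 25.3 and 10.9 in differentiated cells and 11.9 for isolated-cell Qki-5, beside none for Cox8b and Cox8c. The muscle forms Cox6a2 and Cox7a1 and the testis form Cox7b2 likewise had none. Cox7b, the general partner of Cox7b2, was itself low, at 7.19 for Qki-5, 6.23 for PPARb and 6.87 for isolated-cell Qki-5, with no HA or Pol II peak. The exception among the 8 restricted paralogues was Ndufa4l2, an inducible relative of Ndufa4, with 12.2 for Qki-5, 5.79 for PPARb, 15.8 for HA and no Pol II peak. These peaks are also within 1000 bp of an end of Stac3, so they cannot be given to 1 of the 2 genes. Ndufa4 itself had 17.7 for Qki-5, 18.2 for PPARb, 30.1 for HA, 12.9 for Pol II and 12.4 for isolated-cell Qki-5. Of the 7 general forms compared, 6 had Qki-5, 6 PPARb, 5 HA, 5 Pol II and 5 isolated-cell Qki-5 boundary peaks, and none had an isolated-cell PPARb one.

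Of the 12 subunit genes with no differentiated-cell boundary peak, 7 are the restricted complex IV forms. Another 3, Cox5a, Cox7a2 and Atp5g3, have peaks inside the gene that the window around its ends did not reach. Cox5a, a complex IV subunit, had peaks of 18.8 (Qki-5), 15.1 (PPARb), 24.6 (HA) and 22.9 (Pol II), and isolated-cell Qki-5 and PPARb peaks of 18.8 and 14.7, centred 52 to 161 bp from the listed start whose sequence is printed above. Its isolated-cell PPARb peak was higher than any boundary peak of the 85 genes in that list. Cox7a2, the general form paired with Cox7a1, had 26.6, 17.4, 15.8 and 9.24 in the differentiated-cell lists and 17.4 for isolated-cell Qki-5, at 55 to 121 bp from its listed start. Atp5g3, another ring subunit gene, had 15.5, 12.9, 25.3 and 21.7 and an isolated-cell Qki-5 peak of 14.7, at 2 to 66 bp from its start. These 3 genes are counted as unbound by the rule, and their starts were occupied by the same antibodies as the rest. The last 2, Ndufb4b and Ndufb4c, are short copies of Ndufb4 of 471 and 485 bp with the nearest Qki-5 peak 41399 and 4114 bp away. Reads of near-identical copies cannot always be placed, so the lack of a peak at a copy is uncertain. Inside restricted genes there were 2 low HA peaks in Cox4i2 (8.71 and 7.92) and a PPARb peak of 5.79 in Cox7b2.

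Complex V, the ATP synthase, had Qki-5 boundary peaks at 15 of its 17 genes, PPARb at 14, HA at 15, Pol II at 15, isolated-cell Qki-5 at 12 and isolated-cell PPARb at 4. Median heights were 19.4 (Qki-5), 12.5 (PPARb), 20.6 (HA) and 10.4 (Pol II). Atp5g2 had 29.3 for Qki-5 (interval 22.0 to 38.3), 18.2 for PPARb, 38.0 for HA (28.0 to 50.4), 14.2 for isolated-cell Qki-5 and 7.61 for isolated-cell PPARb, and no Pol II peak. Its Qki-5 and HA peaks were among the 3 tallest of the group in their lists, around the start shown in the sequence above. Atp5b, the catalytic beta subunit, had 25.4, 12.5, 18.2 and 20.9 for Qki-5, PPARb, HA and Pol II, and no isolated-cell peak. Atp5a1, the alpha subunit that forms the catalytic head with it, had the tallest Pol II peak of the 85 genes at 32.6 (interval 25.9 to 40.5). Qki-5, PPARb and HA were at 17.1, 10.2 and 24.6 there and isolated-cell Qki-5 at 12.8, and Haus1 ends nearby. Atp5h, a stalk subunit, followed in the Pol II list at 22.9, with 16.0 for Qki-5, 11.6 for PPARb, 21.4 for HA and 11.9 for isolated-cell Qki-5. Ndufv2 of complex I had the same Pol II height of 22.9.

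Within each list, the bound subunit genes were slightly taller than bound genes in general. The median height was 16.9 against 14.9 over all genes with a Qki-5 boundary peak. It was 12.5 against 11.6 in the PPARb list, 19 against 17.4 in the HA list and 11.3 against 10.4 in the Pol II list. In isolated cells it was 12.4 against 11.0 for Qki-5 and 8.70 against 8.16 for PPARb. By the fold over input in place of the height, both isolated-cell medians fell below those of all bound genes, at 6.26 against 6.52 for Qki-5 and 4.32 against 5.75 for PPARb. The gaps were small beside the range among the subunit genes, 7.19 to 31.0 for Qki-5.

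**Figure D3:**
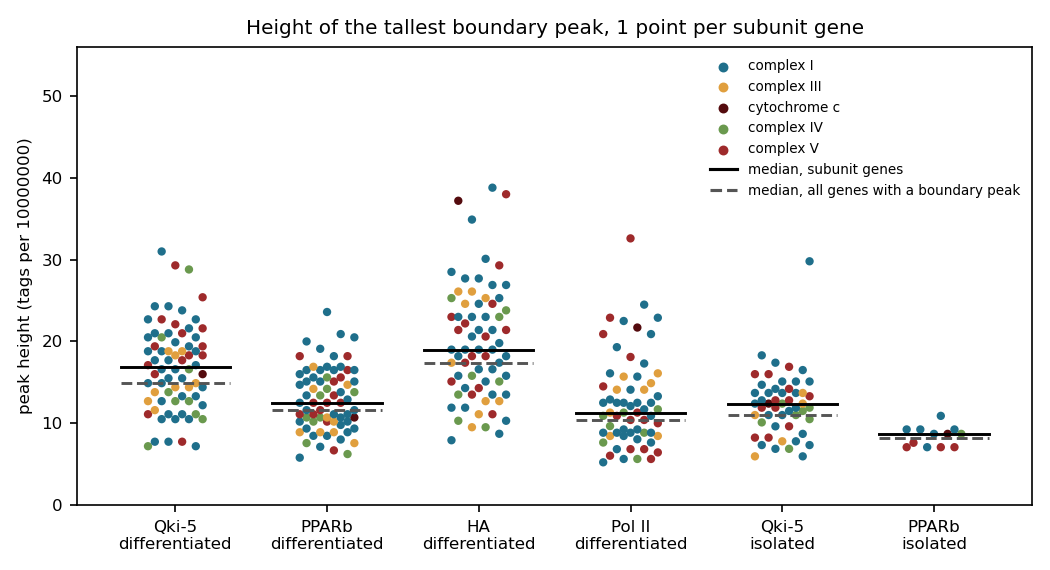
Each point is the tallest boundary peak of 1 subunit gene (y axis, tags per 10000000) in 1 library (x axis), coloured by complex, with a solid line at the median of the subunit genes and a dashed line at the median of all genes with a boundary peak. The solid line is above the dashed one in each library, by 16.9 against 14.9 for Qki-5 in differentiated cells, and the points spread far beyond both.

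The isolated-cell PPARb peaks of the subunit genes were few and close to the calling limit. The 12 genes were Ndufa13, Ndufa10, Ndufs1, Ndufb6, Ndufb3, Ndufb5, Cox5b, Cycs, Atp5g2, Atp5g1, Atp5c1 and Atp5l. Of them, 7 had under 5-fold enrichment over input where 4-fold was required. Over all genes with an isolated-cell PPARb boundary peak, the lower quartile of this fold was 4.78 and the median 5.75. Atp5g1, Atp5c1 and Atp5l, with Ndufb5, had the lowest height, 7.07. With at least 8-fold required, 1 of the 85 genes remained (1.18%), the same share as other genes (1.17%). This list held 1391 peaks, the fewest of the 6, from 18389111 tags, while Qki-5 in differentiated cells had 30175 peaks from 18078176 tags. What set the low number was not tested. All 12 genes had a PPARb boundary peak in differentiated cells too, as had 95.0% of all genes with an isolated-cell PPARb one. Likewise all 51 subunit genes with isolated-cell Qki-5 had a differentiated-cell Qki-5 peak, beside 94.9% of all such genes. Over those 51 genes the Qki-5 heights of the 2 cell kinds had a Spearman rho of 0.62, a description over genes that are not replicates and whose sequence both libraries share.

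Qki-5 and PPARb peaks of 1 subunit gene lay close together, as they did in genes in general, and overlapped in a slightly smaller share. Among the 70 genes with both in differentiated cells, 60 had overlapping 200 bp peaks (85.7%, all genes with both 90.4%), with a median distance between centres of 38.5 bp (quartiles 18.5 and 112, highest 453). In Cox5b the 2 centres were 16 bp apart. For 68 of the 85 genes RefSeq lists a start with its strand. The tallest Qki-5 peak lay within 1000 bp of the start in 57 of 59 such genes (96.6%), near the share of other genes (91.1%). The exceptions were Ndufb6 and Ndufa13. Within this window the median position was 32 bp before the start for Qki-5 (-32) and 25 bp before it for PPARb (-25). HA was at 38 bp and Pol II at 50 bp after the start, and other genes gave -36, -30, 1 and 59 in the same order. The isolated-cell medians were -26 for Qki-5 and -57 for PPARb.

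**Figure D4:**
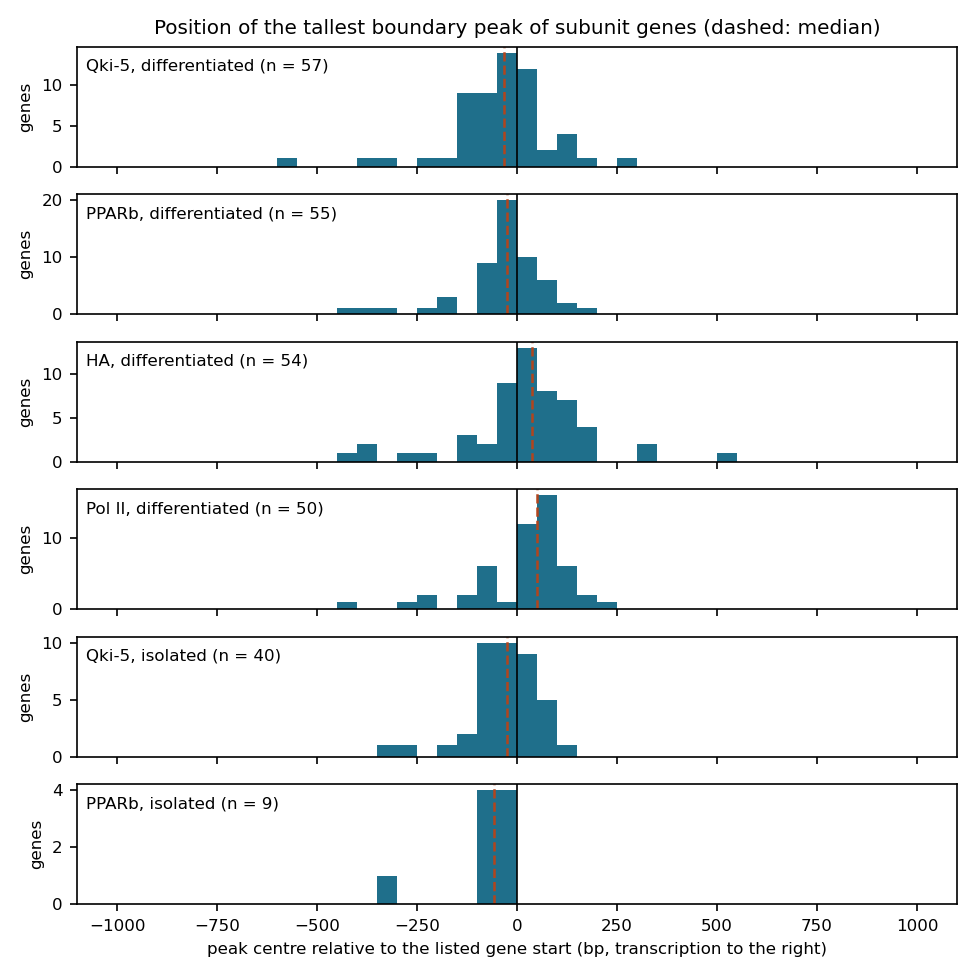
Histograms of the distance (bp, x axis) from the listed gene start to the centre of the tallest boundary peak, in number of subunit genes per 50 bp (y axis), for each library, with positive values inside the gene and a dashed line at the median. Qki-5 and PPARb medians lie before the start (-32 and -25 bp) and HA and Pol II medians after it (38 and 50 bp).

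The subunit genes are compact and often have an end of another gene close by. Their median length was 6872 bp against 17242 bp for other genes, and 47 of 85 (55.3%) had the end of another protein-coding gene within 1000 bp of an end of theirs, against 24.7%. Such genes were bound more often in general, so the shares were set side by side within each kind. With a neighbour, Qki-5 was at 89.4% of the 47 subunit genes and 71.8% of other genes, and without one at 78.9% of 38 and 37.8%. PPARb gave 87.2% against 65.4% with a neighbour and 78.9% against 34.2% without. At 33 of the 72 genes with a Qki-5 boundary peak, the tallest one was also within 1000 bp of an end of another gene. The matching share over other genes was not counted. Atp5j, a stalk subunit of complex V, is such a case: its Qki-5 (17.7), HA (23.0), Pol II (10.0) and isolated-cell Qki-5 (12.8) peaks are also the peaks of Gabpa, which encodes the DNA-binding part of GABP.

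The known promoter letters of this gene group were found in the RefSeq windows of 300 bases, 250 before and 50 after the start. Windows were listed for 68 of the genes, 73 in all, and are set beside all 21263 windows of protein-coding genes. The ETS letters CCGGAAG were in 15 of 73 (20.5%, all windows 11.6%), the NRF-1 letters GCATGCGC in 10 (13.7%, all windows 3.52%) and the YY1 letters AAGATGGCG in 7 (9.59%, all windows 1.83%). GGGCGG, the GC box, was in 28 (38.4%, all windows 46.2%) and CCAAT in 30 (41.1%, all windows 38.2%). For nuclear receptors, the core element AGGTCA was in 15 windows (20.5%, all windows 14.7%) and the ERR element TCAAGGTCA, which contains it, in 1 (1.37%, all windows 0.334%). No subunit window held 2 copies of AGGTCA 1 base apart, the PPAR-type arrangement, which 0.0470% of all windows held. The Quaking letters known from RNA, ACTAAC and ACTAAT, were in 4 and 2 windows (5.48% and 2.74%, all windows 5.46% and 5.23%). Both strands were searched for each. Subunit windows had a median of 19 CpG and 57.3% G and C, against 13 and 56.3% over all windows. These shares describe letters only, and how they relate to the peaks was not tested.

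Genes that work with the subunits were counted in the same way. Over 66 genes of complex II, assembly factors, carriers and regulators, 63 had a Qki-5, 58 a PPARb, 62 an HA and 53 a Pol II boundary peak in differentiated cells, and 41 and 11 a Qki-5 and a PPARb one in isolated cells. Over all genes the shares were 46.3%, 42.1%, 46.5% and 36.4%, and 26.4% and 5.01% in isolated cells, and they are the background for each list here. All 4 genes of complex II, which feeds electrons from succinate, were in the 4 differentiated-cell lists. Sdha, its flavoprotein, had 24.3 for Qki-5, 16.5 for PPARb, 16.6 for HA, 14.9 for Pol II and 10.5 for isolated-cell Qki-5. Sdhb, the iron-sulfur protein, had 18.3, 15.6, 26.9, 10.9 and 17.4 in the same order. The membrane anchors were lower in the Qki-5 list, Sdhc with 12.7, 8.90, 18.2, 9.65 and 5.95 and Sdhd with 15.5, 13.4, 12.7, 9.65 and no isolated-cell peak. Of 41 assembly factors, 40 had Qki-5, 36 PPARb, 39 HA and 35 Pol II.

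Among 12 regulators of mitochondrial gene expression, 11 had Qki-5, 10 PPARb, 11 HA and 8 Pol II boundary peaks in differentiated cells (all genes 46.3%, 42.1%, 46.5% and 36.4%). Nrf1, which encodes the NRF-1 factor, had 16.0, 12.0, 22.2 and 16.1, and 11.0 for isolated-cell Qki-5. Esrra, an orphan receptor gene, had 25.4, 15.6, 22.2 and 9.65, and 14.7. Tfam, the mitochondrial DNA packaging factor, had 17.1, 14.7, 14.3 and 8.44, and 11.0. Ppargc1a, the coactivator PGC-1 alpha, had 14.9, 11.6, 13.5 and 5.63 and no isolated-cell peak. Gabpa had the Atp5j values given above and no PPARb peak. None of these 5 had an isolated-cell PPARb boundary peak, and the 1 regulator that had was Yy1 (9.79), named after its value was seen.

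The cell label was set against marker genes, which ChIP-seq can show only as occupancy. Of 10 oligodendrocyte markers, 8 had no differentiated-cell boundary peak (all genes 49.1%). Pol II was at 2 of them (all genes 36.4%), Olig1 (22.5) and Cnp (21.7). Isolated-cell Qki-5 was at 3 (all genes 26.4%), Mag, Mobp and Cnp. Of 25 markers of astrocytes, neurons, microglia, endothelium and stem cells, Pol II was at 4 (all genes 36.4%), namely Slc1a3, Tubb3, Nes and Sox2. HA was at 9 of the 25 (all genes 46.5%). Isolated-cell Qki-5 was at 3 of these 25 (all genes 26.4%). They were the endothelial markers Cldn5 (5.95) and Flt1 (5.50) and the stem cell marker Nes (6.87). Depth ranged from 12624236 to 24880851 tags and the lists from 1391 to 30175 peaks. The lowest peaks held 8 to 11 tags, so weak peaks were not detectable at this depth.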

How the data were processed

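ChIP-seq libraries of 6 antibody and 2 input groups were used through the authors' 6 peak lists. Tools named in the submitters' processing notes, with no role given, are Bowtie 1.2.2, HOMER 4.10.1, SAMtools 1.8, bcl2fastq 2.19.1.403 and Trim Galore 0.4.4, and the build is mm10. Per the file headers, the authors called 200 bp peaks with HOMER findPeaks at a false discovery rate of 0.001, 4-fold over input (Poisson p of 0.0001) and the same fold over the local region of 10000 bp. The headers also name 2 tag directories (Qki-5 of differentiated cells, input of isolated cells) as merged, with what was merged not stated.

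The height is the authors' normalized tag count, a signal set to 10000000 tags for each library, per the file headers. Fold over input is a ratio that the authors' caller wrote for each peak. Total tags are counts in the deposited lists except in the differentiated-cell lists of PPARb and Pol II, where they are a signal scaled to input depth. Tag numbers for the 95% exact Poisson intervals were recovered from height and library depth.

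Peak centres on chromosomes 1 to 19, X and Y were joined to the ends of 21887 protein-coding genes of the RefSeq table for GRCm38.p6, the same build as mm10, within 1000 bp. That table has no strand and no exons, so whether a peak is exonic or intronic is not given; starts and strands came from the RefSeq promoter table for 68 of 85 genes. Joining was tested on simulated data. With 1 library per group no test was run. Counts and medians are given beside those of other genes. Python 3.11.15, pandas 2.3.3 and scipy 1.17.1 were used.

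Alternatives were windows of 500, 2000 and 5000 bp, the gene start alone, 8-fold peaks, the 2000 tallest peaks, whole genes, unshared peaks, fold in place of height, and the nearest peak. The members, lists and rules were chosen with earlier results of these data known. Named genes were the 3 tallest per library, the 2 tallest Qki-5 genes per complex, those with isolated-cell PPARb or no differentiated-cell boundary peak, the paralogue lists, Cycs and Cyc1, the Sdh genes, Nrf1, Gabpa, Esrra, Ppargc1a and Tfam. Other names and the printed sequences were chosen after their values were seen. Usmg5 and Mp68 on the carrier list are Atp5md and Atp5mpl, which belong to the 85 genes, and were dropped from it.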

Additional observations from a re-analysis of the deposited data

How the results depend on the processing

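No paired analysis was possible because each group had 1 library. Of 91 values recomputed under the alternatives, 68 stayed within the limits of size set for them, 21 moved beyond these and 2 medians turned to the other side of the median of all bound genes. In all 64 recomputed counts of bound genes (those among genes with Pol II not included), the share of subunit genes was above that of other genes, if only by 1.18% against 1.17% for isolated-cell PPARb at 8-fold. With 8-fold enrichment required, the count fell from 71 to 47 for PPARb (55.3%, other genes 28.5%). It fell from 51 to 16 for isolated-cell Qki-5 (18.8%, other genes 9.23%) and from 12 to 1 for isolated-cell PPARb. Genes with both factors fell to 46 in differentiated cells (54.1%, 2.16 times the share of other genes). In isolated cells they fell to 1 (1.18%, other genes 0.858%). Of 44 subunit genes with Pol II, 40 had Qki-5 (90.9%, other genes with Pol II 83.3%). PPARb was at 33 of the 44, and at 70.6% of other genes with Pol II. Among the 2000 tallest peaks of each list the counts were lower, since fewer peaks entered. Qki-5 was at 16 genes (18.8%, other genes 6.98%), PPARb at 8 (9.41%, other genes 4%) and HA at 9 (10.6%, other genes 4.44%). Pol II was at 19 (22.4%, other genes 8.43%) and isolated-cell Qki-5 at 22 (25.9%, other genes 9.39%). Both factors were at 4 in differentiated cells (4.71%, other genes 2.33%). Leaving out peaks near another gene also let fewer peaks enter. Qki-5, PPARb, HA and Pol II were then at 41, 41, 39 and 35 genes. These were 48.2%, 48.2%, 45.9% and 41.2%, against 34.2%, 30.9%, 34.8% and 26.3% of other genes. Isolated-cell Qki-5 and PPARb were at 30 and 6 (35.3% and 7.06%, other genes 18.1% and 3.32%). Both factors were at 40 genes in differentiated and 6 in isolated cells (47.1% and 7.06%, other genes 29.0% and 3.00%). The shares of subunit and other genes were closer than with all peaks, where HA had 82.4% against 46.3%. These shares still counted every gene, and 55.3% of subunit genes against 24.7% of other genes had a neighbouring gene end. The closer shares therefore do not compare like genes. Among genes with no other gene end within 1000 bp, HA was at 73.7% of subunit genes and 38.5% of other genes. By fold over input the median percentile of the subunit genes fell from 63 to 45.7 for isolated-cell Qki-5 and from 62.1 to 9.48 for isolated-cell PPARb; the cause was not tested. Among genes with Pol II, the HA share of subunit genes also turned direction, and was below that of other genes at 500 bp (93.4% against 93.8%) or at 2000 bp (96.9% against 97.2%). Depth sets the weakest peak that could be called, which held 8 to 11 tags in the 6 lists.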
